A study of Mus musculus with 24 samples.

Results

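The short interspersed elements (SINEs) of the mouse genome were followed through the MeRIP-seq libraries of nuclear RNA from mouse ES cells. Members were all repeat subfamilies that the deposited count table assigns to the class SINE, 35 of its 1153 repeat subfamilies and of its 49090 features in all, the other features being 47937 genes. They fall into 6 families, with 16 subfamilies in Alu (the B1 elements and their relatives), 5 in B2, 4 in B4, 4 in ID, 4 in MIR and 2 in Deu. A single subfamily listed under the uncertain class SINE? was not included. MeRIP pulls down sonicated RNA with an antibody against N6-methyladenosine (m6A), and the RNA taken before the pulldown is the input, so m6A RNA enrichment was read as the ratio of the immunoprecipitated library (IP) to its input.

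The 4 lines compared had a 129/Sv x C57Bl6 background and were grown in serum replacement and LIF on gelatin. WT26 is wild type and is the control of the *Mettl14* KO, clone A10, which was made in WT26 with CRISPR/Cas9 and has a homozygous frameshift deletion. RBC carries Rosa26 BirA-V5 and Cre-ERT2 and is the control of the *Mettl3* KO, clone 2c4d, which was derived from RBC cells and so carries both as well. Each KO is 1 clone, so the loss of the gene and other properties of that clone cannot be told apart. For each line there were 2 biological replicates of input and of IP, 16 libraries and 8 pairs of input and IP in all, and each IP combined 3 MeRIP reactions. RNA-seq of nuclear RNA, again with 2 replicates per line, was counted over genes only.

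SINEs are short retrotransposons without coding capacity that are copied by the machinery of LINE elements. Their own promoters are read by RNA polymerase III, but most copies lie within genes, so that SINE sequence is also present in many introns and in some mRNAs made by RNA polymerase II. B1 elements descend from 7SL RNA, the RNA of the signal recognition particle, B2 and ID elements descend from tRNAs or the tRNA-like Bc1 RNA, and B4 elements join an ID-like part to a B1-like part. MIR and the AmnSINEs of the Deu family are ancient and shared between distant mammals. Mettl3 is the catalytic subunit of the m6A methyltransferase of mRNA and Mettl14 is its partner in RNA binding.

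The RefSeq annotation of GRCm38.p6 held genomic copies for 2 of the 35 subfamilies, B1_Mus2 and AmnSINE1. Of each, 1 copy is printed as an example of the sequence of a young and of an ancient SINE. Counts are sums over all copies, so they do not show whether any read came from the printed ones. The gene of Bc1 RNA is printed as the relative of the ID elements. The B1_Mus2 copy is at chr7:103823699-103823836, 138 bases long, overlaps no exon or intron of GENCODE and lies 2698 bases from Hbb-bs. It has no annotated strand and is printed on the minus strand, which holds the letters GGAC, the core of the m6A consensus, in capitals.
B1_Mus2: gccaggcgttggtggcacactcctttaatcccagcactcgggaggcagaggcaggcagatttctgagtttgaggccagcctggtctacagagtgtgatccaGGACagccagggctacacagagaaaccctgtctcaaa
The Bc1 gene is at chr7:144914470-144914623, plus strand, 154 bases, and its capitals mark matches to the internal promoter boxes of RNA polymerase III, named the A box and the B box, with variable positions left free.
Bc1: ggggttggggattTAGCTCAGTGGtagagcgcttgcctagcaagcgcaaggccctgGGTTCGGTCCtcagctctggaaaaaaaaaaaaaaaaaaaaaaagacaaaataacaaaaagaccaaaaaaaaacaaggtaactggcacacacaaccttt
Each box was found 1 time in Bc1, against 2.34% (A box) and 0.728% (B box) of 32851 RefSeq promoter windows of the same length searched on both strands. Neither pattern was matched in the B1_Mus2 copy. A box that differs from the fixed letters of these patterns would not match, so the copy is not shown to lack promoter boxes. The AmnSINE1 copy is at chr1:57330392-57330564, 173 bases without an annotated strand, printed on the plus strand, intergenic and 47056 bases from 1700066M21Rik, with GGAC again in capitals.
AmnSINE1: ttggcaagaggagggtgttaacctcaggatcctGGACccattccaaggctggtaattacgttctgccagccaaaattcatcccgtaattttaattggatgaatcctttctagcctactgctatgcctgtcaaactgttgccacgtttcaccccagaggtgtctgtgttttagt
GGAC was found 1 time in this copy and 1 time in the B1_Mus2 copy over both strands, against 70.5% and 62.5% of promoter windows of 173 and 138 bases, so its presence in a stretch of this length is common. A second annotated AmnSINE1 copy, chr19:45567661-45567815 in an intron of Gm17018, is not shown and held 0 GGAC over both strands, against 66.7% of promoter windows of 155 bases.

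Between 9394163 and 28441282 reads were counted per MeRIP library. In the 8 RNA-seq libraries the 9 ES cell markers had between 330 (Utf1) and 12265 (Tdgf1) normalised counts. The 6 fibroblast markers reached 98.6 (Thy1), with Dcn at 0 in all libraries, the 4 primitive endoderm markers 44.8 (Gata6) and the 3 trophoblast markers 45.8 (Eomes). All 9 ES cell markers were lower in both *Mettl14* KO libraries than in both WT26 libraries. In *Mettl3* KO the same held against RBC for each of them except Klf4. The share of all genes that did so was not counted. Klf4 was higher in *Mettl3* KO, at 1868 and 1852 normalised counts against 1255 and 1230 in RBC. Dppa5a had 1144 and 1237 normalised counts in *Mettl3* KO against 4793 and 4948 in RBC, and Pou5f1, the gene of Oct4, had 2266 and 2254 in *Mettl14* KO against 3395 and 3460 in WT26. Thy1 was lower in both KO lines, at 10.4 to 19.5 against 75.1 to 98.6. Col1a2, of the same fibroblast list, went the other way. It had 22.6 and 24.2 in *Mettl3* KO against 6.9 and 3.0 in RBC, and 4.0 and 5.8 in *Mettl14* KO against 1.8 and 1.1 in WT26. Gata6 was higher in *Mettl14* KO, at 44.1 and 44.8 against 17.2 and 16.1 in WT26. Of the same list, Gata4 (31.0 and 32.1 against 7.2 and 9.7) and Sox7 (15.0 and 22.4 against 5.4 and 5.4) were higher too. Sox17 was lower, at 6.0 and 1.9 in *Mettl14* KO against 6.3 and 7.5 in WT26. The part of these differences in the SINE results was not tested. In RNA-seq, Mettl14 had 296.5 and 315.6 normalised counts in *Mettl14* KO and 400.6 and 357.5 in WT26 cells (log2 fold change -0.31, edgeR adjusted p = 0.00609). Mettl3 had 880.0 and 820.9 in *Mettl3* KO and 927.7 and 978.9 in RBC cells (-0.16, adjusted p = 0.0588), so the targeted transcripts were still counted in both KO lines, and a gene total does not show whether the protein is made. The IP libraries of replicate 2 stood apart from those of replicate 1 in all 4 lines, as described below for each SINE result.

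SINE reads made up about as much of the input as all other repeat classes combined. Their share of counted reads was 15.4% to 22.0% in the 8 input libraries (median 19.0%), which was 46.8% to 50.8% of the repeat reads, and the 95% Wilson interval, which covers counting error only, was within 0.0253 percentage points of each share. The input held 18.5% and 17.2% SINE reads for WT26, 15.4% and 20.5% for RBC, 18.3% and 19.5% for *Mettl14* KO, with the highest shares, 20.2% and 22.0%, for *Mettl3* KO, so the 4 lines overlapped except that both *Mettl3* KO inputs were above those of WT26 and *Mettl14* KO. In the IP libraries the share was lower, from 5.91% to 19.1%, and each of the 8 IP libraries was below its own input.

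The make-up of the SINE reads was almost constant across the inputs. The Alu family took 37.8% to 39.1% of them, B2 27.2% to 28.1%, B4 24.9% to 25.9%, MIR 5.26% to 5.62%, ID 3.15% to 3.31% and Deu 0.0665% to 0.0706%. B3, an old B2-family element, was the most counted subfamily with 389023 to 472798 normalised counts per input library, followed by the B4-family elements RSINE1 (258142 to 321770) and ID_B1 (235800 to 289672), while FAM, an early monomer of the Alu lineage, had 144 to 247 and AmnSINE2 472 to 671. These are sums over all copies of a subfamily and are not per length, so they rank the subfamilies by reads and not by transcripts per copy. A read from a copy within an intron and a read from a SINE transcript of RNA polymerase III were counted alike, and in bulk RNA fewer cells with SINE RNA and less SINE RNA per cell cannot be told apart.

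In the IP the make-up shifted slightly toward the Alu family. Alu took 38.8% to 41.6% of the SINE reads in the IP libraries, MIR 4.17% to 5.19% and ID 2.85% to 3.13%, so that the IP and input ranges did not overlap for MIR and ID and overlapped narrowly for Alu. B2_Mm1a, a young B2 subfamily, took 1.60% to 2.03% of the SINE reads in the inputs and 2.25% to 4.44% in the IPs, with no overlap. For B1_Mm the shares were 2.08% to 2.35% in the inputs and 2.72% to 3.23% in the IPs, again with no overlap. The share of B3 was lower in the IPs, with a median of 10.5% against 11.9% in the inputs, and no IP reached the lowest input at 11.6%.

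**Figure D1:**
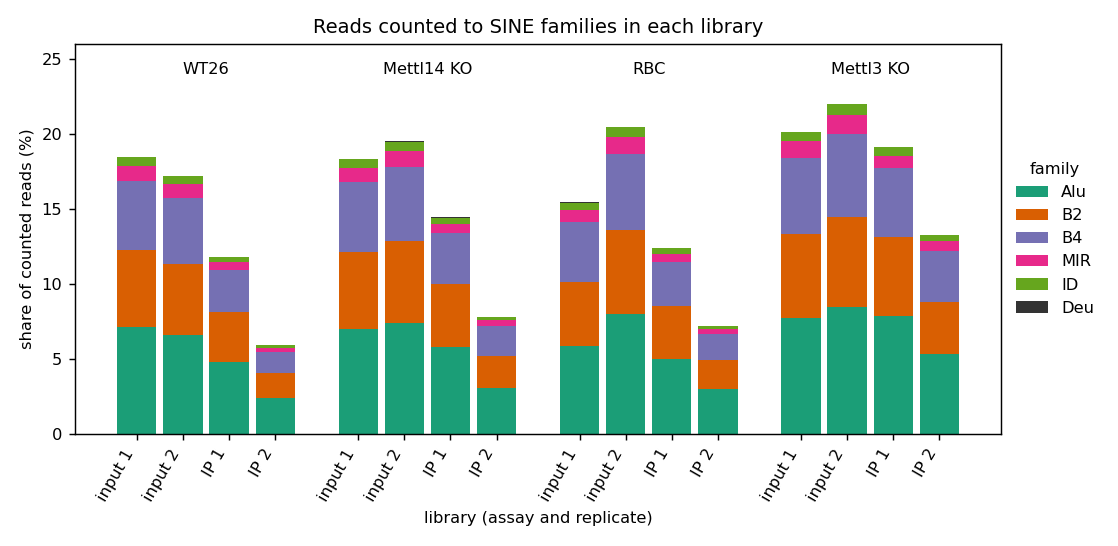
Share of counted reads (%) assigned to each SINE family in the 16 MeRIP libraries, stacked by family for input and IP of each line and replicate. The input libraries sit between 15.4% and 22.0%, and in each line the IP of replicate 2 is below the IP of replicate 1, which is below its input.

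As a class, SINE RNA was lower in the m6A IP than in the input in each pair. The log2 ratio of IP over input of all SINE reads, scaled by the size factors of the whole table, was -1.04 and -1.99 for replicates 1 and 2 of WT26. It was -0.84 and -1.91 for RBC and -0.77 and -1.74 for *Mettl14* KO. The *Mettl3* KO pairs had -0.44 and -1.13. The mean of the 8 pairs was -1.23 ± 0.58 (SD), a 2.35-fold lower level in the IP. All 8 values were below 0, those of replicate 2 were lower than those of replicate 1 in each line, and the *Mettl3* KO pair was the highest within both replicate numbers. In the edgeR fit of class totals the log2 fold change was -1.45 for WT26 (SE 0.54, adjusted p = 0.0531), -1.31 for RBC (SE 0.54, adjusted p = 0.0800), -1.21 for *Mettl14* KO (SE 0.53, adjusted p = 0.107) and -0.75 for *Mettl3* KO (SE 0.53, adjusted p = 0.396), so none passed the threshold of 0.05. With the input and IP of a replicate treated as a pair, WT26 passed it (-1.52, adjusted p = 0.0412).

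The families followed the same order of lines and differed little in size. Over the 8 pairs the mean log2 ratio was -1.16 ± 0.59 for Alu, -1.23 ± 0.58 for B2, -1.26 ± 0.45 for Deu, -1.30 ± 0.58 for B4, -1.36 ± 0.60 for ID and -1.46 ± 0.51 for MIR (SD). Because both families of a comparison are read from the same 2 libraries, the difference between them does not depend on the size factors. By an exact sign-flip permutation test over the 8 pairs (two-sided, smallest possible p 0.0078, adjusted over 15 pairs of families), 8 differences passed. MIR was below Alu by 0.30 (adjusted p = 0.0195, in 8 of 8 pairs), below B2 by 0.24 (adjusted p = 0.0195, 8 of 8), and below B4 by 0.17 (adjusted p = 0.0439, 7 of 8) in this permutation test. MIR less Deu was -0.20 (exact permutation test, adjusted p = 0.0195, below 0 in 8 of 8).

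ID was below Alu by 0.20 and below B2 by 0.14 on the log2 scale, each in 8 of 8 pairs (exact permutation test, adjusted p = 0.0195). B4 was below Alu by 0.14 in 8 of 8 pairs (exact permutation test, adjusted p = 0.0195). Alu exceeded B2 by 0.07 in 7 of 8 pairs (exact permutation test, adjusted p = 0.0335), but this order turned to -0.10 when each family was read as the median of its subfamilies instead of its total. The B4 and MIR difference and that of Alu and B2 no longer passed when any of 7 of the 8 pairs was left out, and the number of differences called then ranged from 6 to 10. The other 7 differences did not pass, among them ID and MIR (0.10, 7 of 8 pairs, exact permutation test, adjusted p = 0.0703). The 8 pairs share lines and replicate numbers, so they are not 8 independent cultures of 1 kind.

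Against the other classes in the same pairs, SINE RNA was low but not the lowest. The mean log2 ratio of IP over input was 1.18 for satellites, 0.08 for LINE elements, -0.29 for the sum of all genes, -0.78 for LTR elements and -1.48 for DNA transposons. The SINE total less that of another class was -2.41 for satellites, -1.31 for LINE elements, -0.94 for genes and -0.45 for LTR elements, and 0.25 for DNA transposons. Each of these 5 differences had 1 direction in 8 of 8 pairs. Each had the smallest p that the exact permutation test allows, 0.0078, also after adjustment over the 5. The 8 pairs share lines and replicate numbers, which the test takes no account of. The differences from genes ranged from -1.81 to -0.04, so their size varied between pairs more than their direction did.

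**Figure D2:**
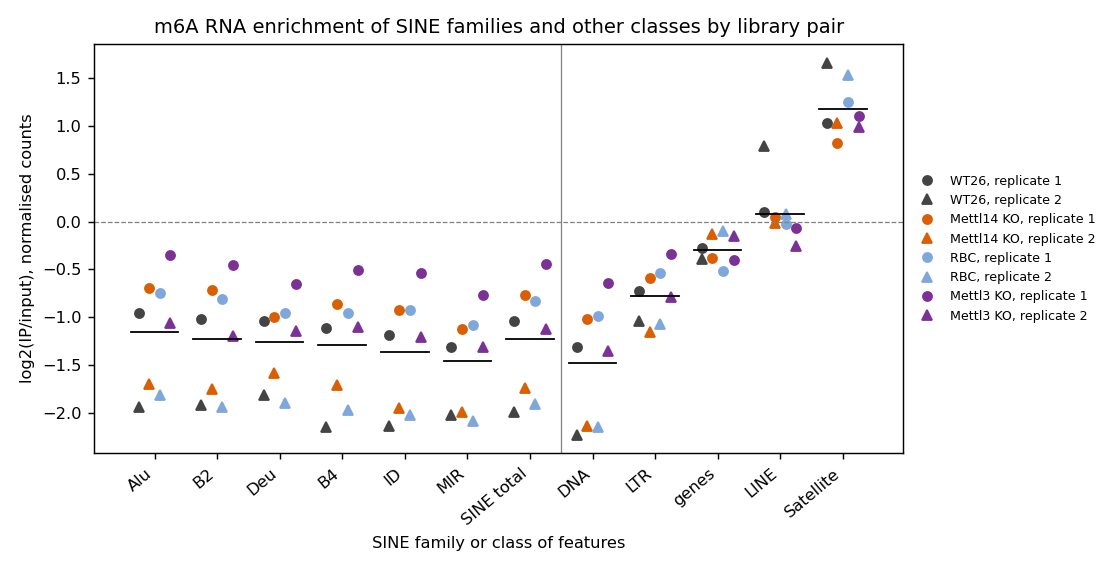
Log2 ratio of IP over input (normalised counts) for the 6 SINE families and the SINE total, left of the vertical line, and for other classes of features, right of it. Circles are replicate 1 and triangles replicate 2 of each line, and the horizontal bars are means of the 8 pairs, which run from -1.16 for Alu to -1.46 for MIR and up to 1.18 for satellites.

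At the level of subfamilies the deficit in the IP was found in most members of 3 lines. All 35 subfamilies passed the filter on low counts. In WT26 cells 32 of them were lower in the IP at an adjusted p of at most 0.05 in edgeR, where 33.0% of the 22621 features tested were called in either direction and 16.1% lower. In RBC cells 29 were lower (28.6% of features called, 13.1% lower), and for *Mettl14* KO the count was 25 (25.5% called, 12.0% lower). For *Mettl3* KO 0 were called by edgeR (5.0% called, 2.22% lower), with 9 at an unadjusted p under 0.05 (25.7% of features). DESeq2 called 6 (10.5% of features). None was called higher in any line, and each called subfamily had a log2 fold change below -1. The median over the 35 was -1.54 for WT26, -1.39 for RBC, -1.33 for *Mettl14* KO and -0.81 for *Mettl3* KO, beside medians over all features between -0.01 and 0.02.

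The number called depended on single libraries and on the pairing. With input and IP of a replicate as a pair, 29 subfamilies were called in WT26 cells (33.9% of features) and 26 in RBC (28.5%). The count was 0 in *Mettl3* KO (3.72%) and went from 25 to 16 in *Mettl14* KO (24.3%). Without replicate 2 of a line 0 were called in that line by edgeR, for WT26, RBC and *Mettl14* KO alike, and the share of all features called there was then 0.0804%, 0.0961% and 0.121%. In addition, the number called in *Mettl14* KO cells fell when either replicate of *Mettl3* KO was left out, as did the share of all features called there. The 0 of *Mettl3* KO moved with several settings, among them how the step between replicates was treated. It was 6 with DESeq2 (10.5% of features), 5 with no filter on low counts (7.89%) and 4 with only the libraries compared (15.1%). With a block on the replicate number, which the lines share, 6 subfamilies were called for *Mettl3* KO (13.8% of all features). The counts beside it were 34 in WT26 (41.9%), 33 in RBC (39.3%) and 31 in *Mettl14* KO cells (35.2%). With a separate block for inputs and for IPs, chosen after seeing the data, 33 were called for *Mettl3* KO (33.9% of all features). For each other line 35 were called (49.7% to 54.1%). The SINE total then passed in all 4 lines, at -0.78 for *Mettl3* KO (edgeR adjusted p = 0.00728).

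The families contributed unequally to these counts. All 4 B4, 4 ID, 4 MIR and 2 Deu subfamilies were called in WT26, RBC and *Mettl14* KO cells. Of the 16 Alu-family members 15, 12 and 9 were called in these lines, and of the 5 B2 members 3, 3 and 2. The family totals gave 6 of 6 called in WT26 (13.8% of the summed table called lower), 4 in RBC (B4, Deu, ID and MIR, 11.3%), 3 in *Mettl14* KO (Deu, ID and MIR, 10.2%) and 0 in *Mettl3* KO cells (2.46%), where edgeR gave 2 (Deu and MIR) at an unadjusted p under 0.05 and DESeq2 called 2.

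The most counted members show the size of the deficit. B3 had input levels of 389023 and 396738 normalised counts in WT26 and IP levels of 164794 and 83056, a log2 fold change of -1.66 (SE 0.47, edgeR adjusted p = 0.0180). In *Mettl3* KO cells it had 455880 and 472798 in the input against 308346 and 192728 in the IP, a log2 fold change of -0.89 (SE 0.46, edgeR adjusted p = 0.239). Both IP values lay below both inputs in each of these lines. RSINE1 of the B4 family went from 258142 and 294686 to 114894 and 62490 normalised counts in WT26 (-1.64, SE 0.41, adjusted p = 0.0118). MIRb, the most counted ancient element, went from 63184 and 65433 to 24732 and 14820 (-1.70, SE 0.37, adjusted p = 0.00809).

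The next members by input level lay in the same range. B3A had 193043 and 193095 normalised counts in the inputs of WT26 and 84708 and 42115 in the IPs (-1.61, SE 0.46, adjusted p = 0.0186), B4A 210251 and 214241 against 99372 and 48940 (-1.52, adjusted p = 0.0209) and PB1D10 of the Alu family 130516 and 135791 against 60117 and 32050 (-1.53, adjusted p = 0.0168). MIR went from 59713 and 61295 to 23759 and 14965 (-1.64, adjusted p = 0.00818), MIRc from 30982 and 32237 to 13298 and 9466 (-1.47, adjusted p = 0.00754) and ID4 from 38107 and 40321 to 17116 and 9109 (-1.58, adjusted p = 0.0123). B2_Mm2, at 202592 and 215001 against 103755 and 58466, had the smallest of these deficits (-1.36, SE 0.43, adjusted p = 0.0281). In all 7 both IP values lay below both inputs, and the share of all features that did so was not counted.

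For B1_Mus1, the most counted B1 subfamily, the inputs of WT26 were 191445 and 208540 and the IPs 112272 and 61710 normalised counts (-1.20, SE 0.41, adjusted p = 0.0390). ID4_, the most counted ID element, was at 45504 and 48256 in the inputs and at 19861 and 10812 in the IPs of WT26, and AmnSINE1 at 1687 and 1784 against 853 and 558 (-1.30, SE 0.29, adjusted p = 0.00808). The lowest value of WT26 was that of AmnSINE2, -1.77 (SE 0.34, adjusted p = 0.00652), which was also lowest in RBC cells (-1.76, adjusted p = 0.00846). MIRb was lowest in *Mettl14* KO cells (-1.57, adjusted p = 0.0135) and MIR3 in *Mettl3* KO cells (-1.04, SE 0.33, adjusted p = 0.0749).

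B2_Mm1a stood at the other end in 3 of the 4 lines. Its pair values were -0.16 and -0.86 for WT26, -0.16 and -1.12 for RBC, 0.05 and -0.72 for *Mettl14* KO, and the *Mettl3* KO pairs had 0.02 and -0.64. Their mean of -0.45 ± 0.44 (SD) was the highest of the 35, with values of replicate 1 near 0 in all 4 lines. In the fit it was at -0.51 for WT26 (SE 0.36, adjusted p = 0.280), -0.57 for RBC (adjusted p = 0.235), -0.31 for *Mettl14* KO (adjusted p = 0.531) and -0.27 for *Mettl3* KO (adjusted p = 0.664), not called in any. FAM came next with a mean of -0.62 ± 0.58 and was highest in *Mettl3* KO cells (-0.16, adjusted p = 0.802), on far fewer counts, 72.0 to 219 normalised counts in the IP libraries. B1_Mm (-0.81), B2_Mm1t (-0.83), B1_Mus2 (-0.95) and B1_Mus1 (-0.97) followed, and MIRb (-1.51) and AmnSINE2 (-1.52) closed the order. Neighbours in this order differed by far less than the SD over pairs, which was 0.42 to 0.64. That SD includes a step between replicates that the subfamilies share, so it does not measure how differences within a pair vary. Each of the 35 was lower in replicate 2 than in replicate 1 in each line, with a median step of -0.98 for WT26, -1.10 for RBC, -1.01 for *Mettl14* KO and -0.67 for *Mettl3* KO.

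Where the zero of this scale lies depends on the scaling. With size factors from repeats only, the median over all features moved up to between 0.74 for *Mettl3* KO and 1.46 for WT26, and the median over the SINE subfamilies to -0.25 for WT26, -0.23 for RBC, -0.18 for *Mettl14* KO and -0.11 for *Mettl3* KO. B2_Mm1a was then higher in the IP in WT26 (0.85, adjusted p = 0.0113), RBC (0.59, adjusted p = 0.0213) and *Mettl14* KO cells (0.85, adjusted p = 0.0199), and B1_Mm, B1_Mus1 and B1_Mus2 were above 0 in all 4 lines without passing the threshold. The differences between subfamilies within a pair are the same under each set of size factors.

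**Figure D3:**
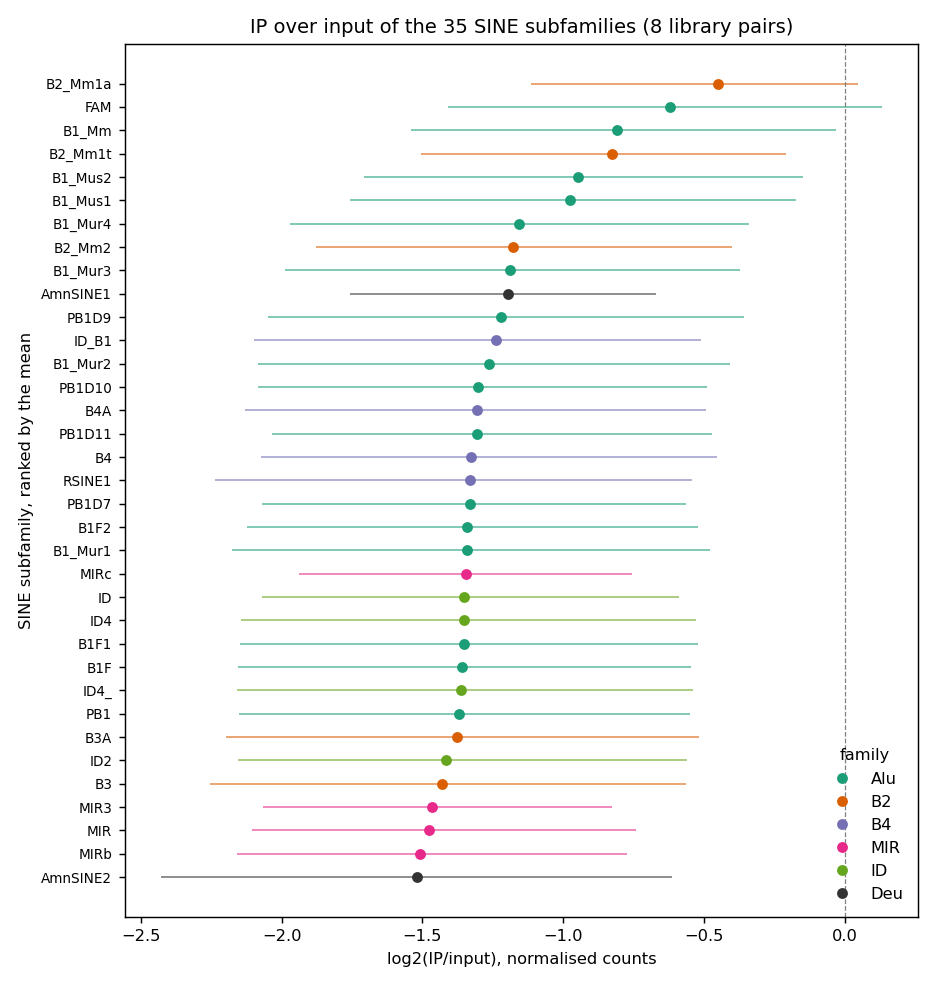
Log2 ratio of IP over input (normalised counts) of the 35 SINE subfamilies, ranked by the mean of the 8 pairs (point) with the lowest and the highest pair (line), coloured by family. B2_Mm1a is at the top with a mean of -0.45, FAM, B1_Mm and B2_Mm1t follow, and MIRb and AmnSINE2 are at the bottom.

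As summed groups, the subfamilies of the Alu and B2 families with the youngest names kept more reads in the IP than the older ones. B1_Mm, B1_Mus1 and B1_Mus2, grouped as young B1, had a mean log2 ratio of -0.93 against -1.28 for the other 13 Alu-family subfamilies, a difference of 0.35 ± 0.07 (SD) that was positive in 8 of 8 pairs and ranged from 0.25 to 0.46. B2_Mm1a, B2_Mm1t and B2_Mm2, grouped as young B2, had -0.95 against -1.41 for B3 and B3A, a difference of 0.47 ± 0.18 that was positive in 8 of 8 pairs and ranged from 0.22 to 0.73. FAM, counted among those 13 on few reads, was an exception, since its mean of -0.62 lay above all 3 young B1 subfamilies. No test is given, since these groups were formed with values known. The B2 difference was 0.62 on average for WT26, 0.45 for RBC, 0.56 for *Mettl14* KO and 0.24 for *Mettl3* KO, and both *Mettl3* KO pairs were below the other 6. For B1 replicate 2 of *Mettl3* KO was the lowest of the 8 pairs and replicate 1 lay among the others. Young subfamilies have many near-identical copies, and reads that map to several copies were shared out among them in the counting, so how the reads were divided between B2_Mm1a, B2_Mm1t and B2_Mm2 is uncertain.

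**Figure D4:**
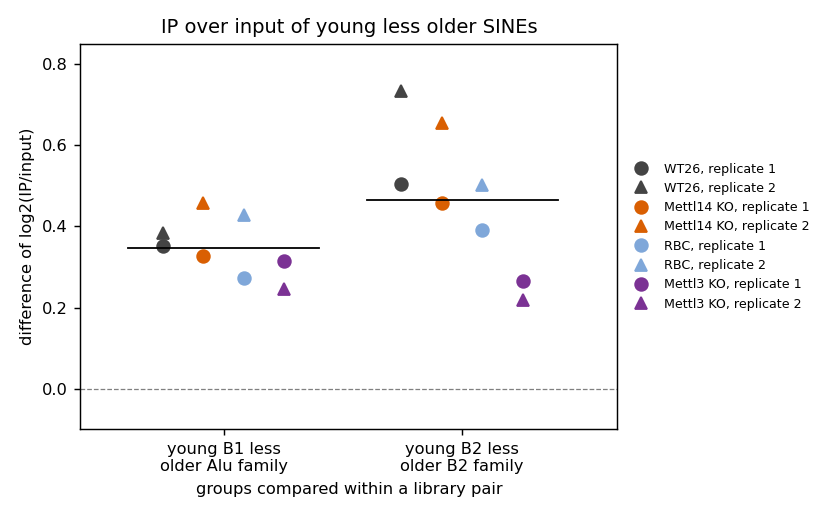
Difference of log2 IP over input between young and older subfamilies within each pair, for B1 against the rest of the Alu family and for B2 against B3 and B3A. All 16 points are above 0, the horizontal bars are the means of 0.35 and 0.47, and for B2 the *Mettl3* KO points are the lowest.

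The 7SK and 7SL RNAs, made by RNA polymerase III from their own genes, had lower ratios than any SINE subfamily in each line. Rn7sk, the gene of 7SK RNA, had 33110 and 53015 normalised counts in the inputs of WT26 and 2792 and 1742 in the IPs (-4.25, SE 0.74, adjusted p = 0.00514), and -2.97 in *Mettl3* KO cells (SE 0.69, adjusted p = 0.0306). Rn7s2, a gene of 7SL RNA and so a relative of the B1 elements, was at -7.03 for WT26 (SE 0.52, adjusted p = 4.77e-05), -5.53 for RBC, -6.06 for *Mettl14* KO and -4.82 for *Mettl3* KO. The B1 subfamily B1_Mus2 was at -1.18, -1.04, -0.91 and -0.50 in these lines. Genes of 7SL RNA are nearly identical, so the division of reads between them is uncertain. No test was made between these genes and the SINEs.

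The KO and control lines did not differ detectably in the m6A RNA enrichment of any SINE. The change in enrichment was taken as the IP-over-input log2 fold change of the KO less that of its control. For *Mettl3* KO against RBC 0 of 35 were called by edgeR and 0 by DESeq2, with 0 at an unadjusted p under 0.05 in edgeR (0.0% of all features called, 3.48% at an unadjusted p under 0.05). All 35 values were above 0, with a median of 0.56, from 0.30 for B2_Mm1a (SE 0.51, adjusted p = 0.884) to 0.75 for AmnSINE2 (SE 0.47, adjusted p = 0.854). The change of the class total was 0.56 (SE 0.74, adjusted p = 0.866), smaller than its SE. In simulated counts edgeR called 24.5% of 200 features given a 4-fold change in this contrast, against 86.5% for IP over input in WT26. The other features were simulated without change and no step between replicate numbers was put in, so these rates need not hold for SINEs. Even changes of that size could thus be missed here, at a rate that was not tested.

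The direction was the same within both replicate numbers for *Mettl3* KO. Each of the 35 subfamilies had a higher ratio in *Mettl3* KO than in RBC cells in replicate 1 (median difference 0.38) and in replicate 2 (median 0.84), where 37.2% of the 14323 features with at least 10 counts in every library did so. With all 4 values side by side, 1 subfamily, B4, had both KO ratios above both RBC ratios (19.6% of features), at -0.45 and -1.15 against -1.19 and -1.99. The 35 subfamilies share libraries and, in part, reads, so they are not 35 observations. The median ranged from 0.08 without replicate 2 of RBC to 1.18 without replicate 1 of RBC, and it was 0.09 with size factors from repeats only, where B2_Mm1a turned to -0.17.

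For *Mettl14* KO against WT26 again 0 of 35 were called by edgeR and 0 by DESeq2, with 0 at an unadjusted p under 0.05 in edgeR (0.0% of features called, 0.557% at an unadjusted p under 0.05). All 35 fitted values were above 0, with a median of 0.21, from 0.05 for AmnSINE1 (SE 0.40, adjusted p = 1) to 0.37 for ID_B1 (SE 0.54, adjusted p = 1). By replicate number 35 were higher in *Mettl14* KO in replicate 1 and 33 in replicate 2, with medians of 0.26 and 0.21 (33 in both, 26.7% of features), and 0 had no overlap between lines (5.37% of features). The median turned to -0.19 without replicate 2 of WT26 and to -0.34 without replicate 1 of *Mettl14* KO, so its direction rested on which replicates were set against each other. RBC against WT26, the 2 control lines, gave a median of 0.15, from -0.06 for B2_Mm1a to 0.23 for ID2, with 0 called by edgeR, 0 at an unadjusted p under 0.05 and 0 called by DESeq2 (0.0% of features called by edgeR, 0.588% at an unadjusted p under 0.05). Its direction too turned, to -0.26 without replicate 2 of WT26 and to -0.47 without replicate 1 of RBC.

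SINE levels in the input did not differ detectably between lines either. For *Mettl14* KO against WT26 0 of 35 subfamilies were called by edgeR (0.398% of features called), with 0 at an unadjusted p under 0.05 (10.6% of features) and 0 called by DESeq2. The median log2 difference was 0.13, from -0.00 for B1_Mm (SE 0.37) to 0.16 for AmnSINE1 (SE 0.28), and 15 of 35 had both KO inputs above both WT26 inputs (25.6% of features). For *Mettl3* KO against RBC the counts were again 0, 0 and 0 (0.76% of features called by edgeR, 11.7% at an unadjusted p under 0.05), with a median of 0.13, from -0.01 for B4 (SE 0.43) to 0.35 for FAM (SE 0.34), and 19 of 35 did not overlap (29.1% of features). FAM had 144 and 206 normalised counts in the inputs of RBC and 200 and 247 in those of *Mettl3* KO, which overlap.

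B4 had 139930 and 126408 normalised counts in the inputs of RBC, 130437 and 134292 in those of *Mettl3* KO and 111090 and 110490 in those of WT26. Both RBC inputs were above both WT26 inputs, as held for 7 of the 35 subfamilies in all (24.2% of features). B4 had the highest difference of RBC against WT26, 0.27 (SE 0.43, adjusted p = 1). The median over the 35 was 0.11 in this comparison, with 0 of 35 called by edgeR, 0 at an unadjusted p under 0.05 and 0 called by DESeq2 (0.584% of features called by edgeR, 8.13% at an unadjusted p under 0.05). The change of *Mettl14* KO less that of *Mettl3* KO in the input had a median of -0.00, from -0.19 for FAM to 0.15 for B4, and 0 were called by edgeR, 0 at an unadjusted p under 0.05 and 0 by DESeq2 (0.141% of features called by edgeR, 7.07% at an unadjusted p under 0.05).

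**Figure D5:**
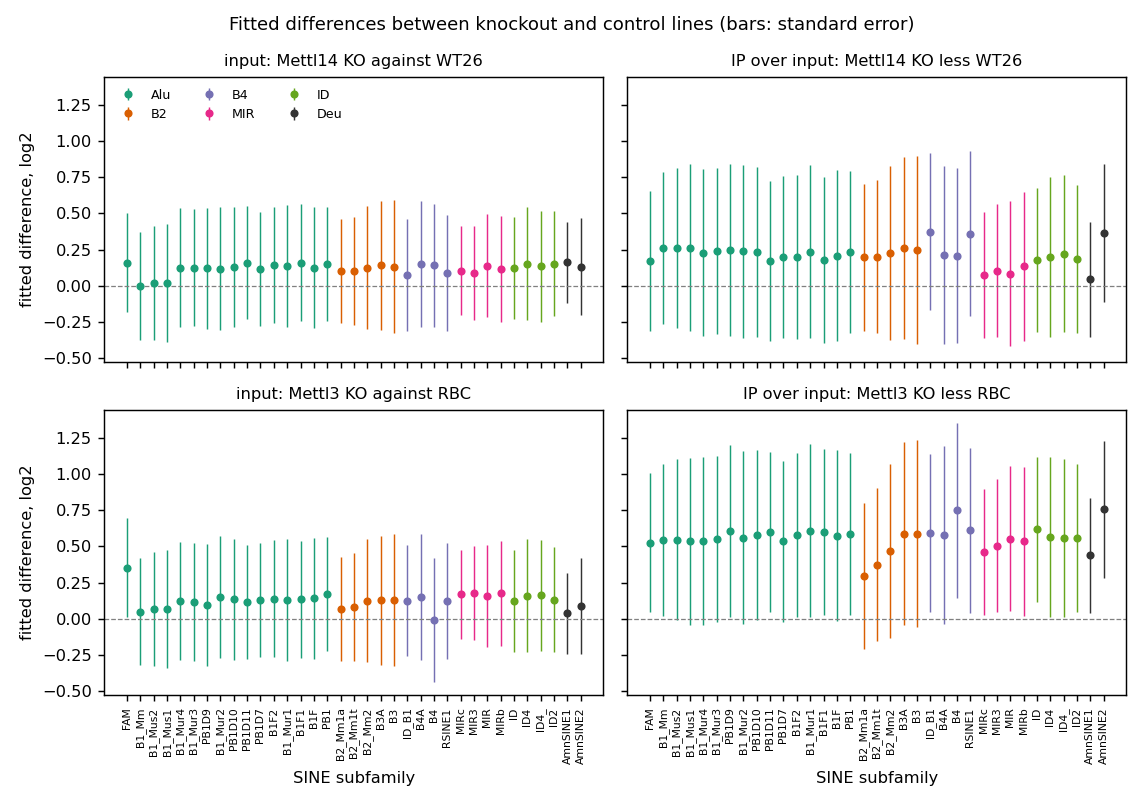
Fitted log2 differences between each KO and its control line for the 35 SINE subfamilies, coloured by family, in the input (left) and in IP over input (right), with standard errors as bars. In the input the points lie between -0.01 and 0.35 and in IP over input between 0.05 and 0.75, with SEs of 0.28 to 0.65.

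Genes for the machinery that transcribes, silences and binds SINE RNA were read in the RNA-seq libraries with edgeR at an adjusted p of at most 0.05. Of 25 genes of the RNA polymerase III machinery 3 were higher and 3 lower in *Mettl14* KO than in WT26 cells (25.5% and 27.0% of 17021 genes were), and 5 were higher and 9 lower in *Mettl3* KO than in RBC cells (25.2% and 28.1%). Polr3g, the polymerase III subunit typical of stem cells, was lower in *Mettl14* KO (-0.46, SE 0.07), and its paralog Polr3gl was lower in *Mettl3* KO cells (-1.03, SE 0.19). Of 16 chromatin regulators 1 was higher and 11 lower in *Mettl14* KO, and 3 were higher and 7 lower in *Mettl3* KO cells. Trim28, a corepressor that recruits H3K9 methylation to repeats, was lower in both (-0.54 and -0.74, SE 0.06 each), Suv39h1, an H3K9 methyltransferase, was higher in both (0.90 and 0.50, SE 0.08 each), and Setdb1, the H3K9 methyltransferase that acts with Trim28, had -0.74 in *Mettl14* KO and was higher in *Mettl3* KO cells by 0.16 (SE 0.05 each). Without replicate 2 of RBC 1 chromatin regulator in place of 3 was higher in *Mettl3* KO cells.

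Of 13 proteins that bind SINE RNA or its double strands 3 were higher and 8 lower in *Mettl14* KO (25.5% and 27.0% of all genes tested). In *Mettl3* KO cells 2 were higher and 7 lower (25.2% and 28.1% of all genes tested), and 1 was higher there with DESeq2 or TMM. The number higher in *Mettl3* KO also moved when single replicates were left out. Srp14, which with Srp9 binds 7SL RNA and B1 RNA, was at -0.38 for *Mettl14* KO and -0.76 for *Mettl3* KO (SE 0.09 each), and Ssb, which binds the 3′ ends of polymerase III transcripts, was at -0.29 and -0.39 (SE 0.05 each). Adar, the enzyme that edits adenosine in paired repeats, was lower in *Mettl14* KO (-0.26, SE 0.05) and higher in *Mettl3* KO cells (0.25, SE 0.05). The median over each list was between -0.20 and -0.01, beside 0 over all genes tested for *Mettl14* KO and -0.00 for *Mettl3* KO.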

How the data were processed

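Input and m6A IP of sonicated nuclear RNA were sequenced as stranded, paired-end total RNA libraries, 16 for MeRIP-seq and 8 for RNA-seq. After trimming by cutadapt 1.8.1 and alignment by STAR 2.6.0c to GRCm38, with many positions allowed per read, the authors shared multi-mapped reads among repeat subfamilies and genes with TEtranscripts, so the deposited values are raw counts per gene and repeat subfamily. The strand setting of the counting and the counting tool of the RNA-seq table are not given in the sources used here. The submitters' notes also name FastQC and DESeq2 1.26.0.

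Counts were fitted over all features with edgeR 4.0.16 (quasi-likelihood, R 4.3.3), with DESeq2 1.42.0 size factors, filterByExpr, and all 16 MeRIP libraries in 1 model with a mean per line and assay, and adjusted p-values are Benjamini-Hochberg over the 22621 features tested. Normalised counts are counts divided by the size factors. Calls were made at adjusted p-values up to 0.05. Family and class totals were fitted in tables in which the rows of a family or class were summed. Ratios of IP over input per pair of libraries were compared by exact sign-flip tests (scipy 1.17.1). RNA-seq genes were fitted likewise. Fits were tested on simulated data.

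Totals were 9394163 to 28441282 counts per MeRIP library and 11321459 to 13743181 per RNA-seq library. The lowest count of a SINE subfamily in an input library was 106. The spread between libraries had a common biological coefficient of variation of 0.273. The part of counting error in the precision of the least counted subfamilies was not tested. No replicates agreed within sampling noise. Input and IP of a replicate number come from the same RNA, and their deviations from the group means correlated at 0.20 to 0.29 over 13662 features in each line, so they were treated as pairs in an alternative fit. No source says what a replicate number shares across lines, but deviations of libraries with the same number correlated at 0.59 to 0.80 between the IPs of different lines and at 0.25 to 0.45 between their inputs.

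The members, the gene lists and the young and older groups were chosen with earlier results of these data known. The subfamilies named were drawn from the 3 with the highest input in each family, those called in a contrast and the lowest and highest of each contrast. Of the many called, examples are named and the others counted. B1_Mm and B2_Mm1t are named as members of the young groups, after their values were seen. The RNA-seq table holds genes only, and repeat rows of 7SL and of the relatives of ID were not analysed here, and 1 sequence comparison is not reported here. Alternatives were other scalings, filters, tools, sets of libraries and blocks. The blocks within assay and the ratios per replicate number were chosen after seeing the data.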

Additional observations from a re-analysis of the deposited data

How the results depend on the processing

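Scaled by library size, SINE subfamilies called lower or higher in the IP numbered 15 (WT26), 7 (RBC) and 5 (*Mettl14* KO). Of all features 36.7%, 34.5% and 30.3% were then called. With size factors from repeats only the numbers were 6, 3 and 4, beside 54.2%, 46.6% and 41.5% of features. With only the libraries compared in the fit, 9 were called for RBC (24.4% of features), 14 for *Mettl14* KO (23.3%) and 4 for *Mettl3* KO (15.1%). For *Mettl3* KO 5 were called with no filter (7.89% of features) and 6 by DESeq2 (10.5%). Family totals called with library size were 3 for WT26 and 2 for RBC, with repeats only 0 in each of WT26, RBC and *Mettl14* KO, and with only the libraries compared 3 for WT26 and 1 for each other line. No filter and DESeq2 each gave 6 for *Mettl14* KO and 2 for *Mettl3* KO. The SINE total passed the threshold without a filter and by DESeq2 for WT26 (-1.45), RBC (-1.31) and *Mettl14* KO (-1.21), and for WT26 also with TMM (-1.48) and size factors from genes only (-1.53). The cause of these moves was not tested.

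With a replicate block on the pairs of input and IP the SINE total of WT26 was -1.52 and passed. For *Mettl14* KO 16 subfamilies were then called (24.3% of features). With a block on the replicate number across lines the SINE total passed for WT26 (-1.505), RBC (-1.37) and *Mettl14* KO (-1.26), 6 subfamilies and 2 family totals were called for *Mettl3* KO and 6 family totals for *Mettl14* KO, the input difference of B4 between *Mettl3* KO and RBC turned to 0.00526, and the difference between the KO lines in SINE input turned to 0.00629. With a block within assay, which removes the step between replicates 1 and 2, the SINE total passed in all 4 lines (-1.52 for WT26, -1.37 for RBC, -1.26 for *Mettl14* KO, -0.78 for *Mettl3* KO), and 33 subfamilies and 6 family totals were called for *Mettl3* KO and 6 family totals for *Mettl14* KO. Of all features 54.1% were called under that block for WT26 and 33.9% for *Mettl3* KO. Under the block on the replicate number 13.8% were called for *Mettl3* KO.

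Directions turned mainly with size factors from repeats only. For WT26 the log2 ratios were then 0.028 (AmnSINE1), 0.28 (B1_Mm), 0.092 (B1_Mus1), 0.13 (B1_Mus2) and 0.85 (B2_Mm1a), for RBC 0.28 (B1_Mm), 0.13 (B1_Mus1), 0.15 (B1_Mus2) and 0.59 (B2_Mm1a), and for *Mettl14* KO 0.37 (B1_Mm), 0.20 (B1_Mus1), 0.22 (B1_Mus2), 0.85 (B2_Mm1a) and 0.015 (ID_B1). For *Mettl3* KO they were 0.32 (B1_Mm), 0.022 (B1_Mur4), 0.17 (B1_Mus1), 0.19 (B1_Mus2), 0.56 (FAM), 0.0020 (PB1D9) and 0.020 (Alu total). The change of *Mettl14* KO against WT26 turned to -0.11 for AmnSINE1, -0.018 for the Deu total and -0.061 for the MIR total, and that of *Mettl3* KO against RBC to -0.17 for B2_Mm1a. With library size B2_Mm1a in *Mettl14* KO was 0.13, FAM in *Mettl3* KO 0.22 and the input difference of B4 between *Mettl3* KO and RBC 0.12. With TMM the change of B2_Mm1a between RBC and WT26 was 0.0049. With families read as medians of their subfamilies Alu less B2 was -0.10 and B4 less Deu 0.058. DESeq2 and TMM each gave 1 RNA-binding gene higher in *Mettl3* KO.

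Leaving out each replicate in turn, subfamilies called ranged from 0 to 32 for WT26, 0 to 30 for RBC and 0 to 27 for *Mettl14* KO, and family totals from 0 to 6, 0 to 4 and 0 to 4. The lone sample of a line was then assumed to vary like the other lines. The SINE total of WT26 ranged from -1.99 to -1.03. The change of *Mettl14* KO against WT26 ranged from -0.28 to 0.79 for the SINE total, -0.32 to 0.79 for Alu, -0.34 to 0.74 for B2, -0.14 to 0.90 for B4, -0.24 to 0.54 for Deu, -0.35 to 0.76 for ID, -0.36 to 0.52 for MIR, -0.31 to 0.43 for AmnSINE1 and -0.054 to 0.93 for ID_B1. That of RBC against WT26 ranged from -0.46 to 0.69 for the SINE total, -0.37 to 0.72 for ID2 and -0.61 to 0.35 for B2_Mm1a, and that of *Mettl3* KO against RBC from -0.11 to 0.84 for B2_Mm1a. In the input, B1_Mm ranged from -0.10 to 0.095 (*Mettl14* KO), B2_Mm1a from -0.21 to 0.085 (RBC against WT26), B4 from -0.084 to 0.070 (*Mettl3* KO) and the KO difference of the SINE total from -0.11 to 0.084. The IP over input of B2_Mm1a in *Mettl14* KO ranged from -0.72 to 0.059 and of FAM in *Mettl3* KO from -0.46 to 0.13, B4 less Deu from -0.058 to 0.0099, RNA-binding genes higher in *Mettl3* KO from 1 to 2 and chromatin regulators higher there from 1 to 4. In WT26 the SE was 0.34 for AmnSINE2 on few counts and 0.47 for B3 on the most. Across the inputs FAM and AmnSINE2, the least counted, varied most, with a coefficient of variation of 16.3% and 13.9%. The highest of the others was 10.3% (MIR3). The part of depth in these values was not tested.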
